A study of Rattus norvegicus with 9 samples.

Results

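Natural killer and cytotoxic granule genes were followed in the liver of 9 male Wistar rats, either untreated or at 24 h after total-body irradiation (TBI). The set held 10 genes: the granule proteases Gzma, Gzmb and Gzmk, the pore-forming protein Prf1, the granule membrane protein Nkg7, the receptors Klrd1, Klrb1a, Klrg1 and Ncr1, and the chemokine Xcl1. A gene was taken as measured when a probe of the array carried a RefSeq accession that RefSeq lists under its symbol or a synonym. This gave 1 probe for each of 9 of the 10 genes, out of 13438 named genes on the array. Klrg1 matched no probe and was not analysed here. The probes of 8 genes were tested, and Ncr1 was too dim in every group to be tested.

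The rats formed 3 groups of 3, with 1 one-colour Agilent array per rat. Control rats were untreated. TBI rats received 6.5 Gy from a cobalt source at 2 Gy/min. HSC + TBI rats were given Hong Shan Capsule (HSC), a crude drug prepared from medicinal herbs, by mouth for 3 days before the same 6.5 Gy. The HSC dose is 30 mg/kg/day in the sample labels and 10 g/kg/day in the design text, and it entered no calculation. The arrays hold no group given HSC without irradiation, so HSC + TBI was set against TBI for the addition of HSC and against control for HSC and irradiation together. Whole liver was extracted without sorting of cells.

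Natural killer cells kill infected or altered cells without prior priming, and the liver of rodents is rich in them, among the lymphocytes of its sinusoids. On contact with a target they release granules in which perforin opens the way for granzymes, proteases that start cell death, and they secrete cytokines and chemokines. Activating and inhibitory surface receptors of the lectin-like Klr family and the natural cytotoxicity receptor Ncr1 set whether a cell is attacked. Cytotoxic T cells use the same granules and also make Xcl1, so most of these genes mark cytotoxic lymphocytes in general rather than natural killer cells alone.

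The probes' own sequences are not at hand, so the upstream sequences of 5 members, the 3 granule effectors with the best known roles in killing, Nkg7 and the chemokine, are shown for where transcription of these genes begins. RefSeq on build GRCr8 gave upstream sequence for 7 of the 10 genes (Gzma, Gzmb, Gzmk, Prf1, Nkg7, Klrb1a and Xcl1). Each sequence is the 250 bases before the annotated start of the gene, 5′ to 3′ on the gene's strand, and capitals mark matches to the motifs listed after them. Gzma lies on the minus strand at chr2:46485697-46485946, Gzmb on the minus strand at chr15:34462470-34462719, Prf1 on the plus strand at chr20:29788790-29789039, Nkg7 on the plus strand at chr1:102981247-102981496 and Xcl1 on the minus strand at chr13:79785441-79785690.
Gzma: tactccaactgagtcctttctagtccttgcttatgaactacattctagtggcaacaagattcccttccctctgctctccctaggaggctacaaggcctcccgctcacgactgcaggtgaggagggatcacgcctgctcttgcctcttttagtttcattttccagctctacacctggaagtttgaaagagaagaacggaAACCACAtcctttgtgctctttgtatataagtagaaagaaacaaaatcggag
Gzmb: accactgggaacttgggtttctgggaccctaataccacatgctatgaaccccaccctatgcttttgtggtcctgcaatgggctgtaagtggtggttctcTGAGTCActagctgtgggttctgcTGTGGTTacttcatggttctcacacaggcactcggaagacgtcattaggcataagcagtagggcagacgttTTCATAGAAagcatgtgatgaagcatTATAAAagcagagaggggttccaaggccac
Prf1: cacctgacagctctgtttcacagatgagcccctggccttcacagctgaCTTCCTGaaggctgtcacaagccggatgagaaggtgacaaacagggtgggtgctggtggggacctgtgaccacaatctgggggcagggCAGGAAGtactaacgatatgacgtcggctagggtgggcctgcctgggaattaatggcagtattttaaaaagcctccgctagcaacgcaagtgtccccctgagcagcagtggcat
Nkg7: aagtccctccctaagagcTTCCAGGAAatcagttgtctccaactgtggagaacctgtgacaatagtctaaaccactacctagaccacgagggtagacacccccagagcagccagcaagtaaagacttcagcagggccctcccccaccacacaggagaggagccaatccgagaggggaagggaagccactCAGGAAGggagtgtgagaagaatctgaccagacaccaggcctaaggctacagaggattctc
Xcl1: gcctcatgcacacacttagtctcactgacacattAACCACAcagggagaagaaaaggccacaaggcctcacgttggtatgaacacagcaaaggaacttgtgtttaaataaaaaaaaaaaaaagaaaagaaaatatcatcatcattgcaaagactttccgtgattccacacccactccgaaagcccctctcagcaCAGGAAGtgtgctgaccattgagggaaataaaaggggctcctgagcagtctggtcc

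Motifs of 9 kinds were searched on both strands of the 7 sequences and of all 33469 upstream sequences of the same length. The Runx motif TGTGGTT was found upstream of Gzma, Gzmb and Xcl1, and in 4.59% of all sequences. The Ets motif CAGGAAG was found upstream of Prf1, Nkg7 and Xcl1, and in 10.2% of all. In Gzma the Runx match ends 46 bases before the start, and in Xcl1 and Nkg7 the Ets matches end 50 and 55 bases before it, while Prf1 has a pair of Ets matches farther off. Gzmb alone of the 7 held an AP-1 motif TGANTCA (6.34% of all), and it shared a Stat motif TTCNNNGAA (7.67%) with Nkg7. The letters TATAAA (12.9%) were found upstream of Gzmb on the gene's strand, ending 25 bases before the start, and of Gzmk on the other strand, 217 to 212 bases before it. Gzmk alone held the T-box motif GGTGTGA (3.22%), the motif bound by the lymphocyte factors T-bet and Eomes. The CRE motif TGACGTCA (1.59%), the E-box CACGTG (5.59%) and the NF-kB motif (4.53%) matched none of the 7, and Klrb1a held no match to any of the 9. No 2 matches overlapped. A match describes letters only, and no binding was measured.

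The value of a probe on an array is its log2 signal after quantile normalization over the 9 arrays, and levels of different genes are not compared, since each probe has its own scale. Between 56.6% and 69.5% of the probes were above background on an array, with 56.6% to 59.3% in the controls, 63.6% to 69.5% in the TBI rats and 58.7% to 60.5% in the HSC + TBI rats. All 12 hepatocyte markers examined, among them albumin, were above background on all 9 arrays, as the liver label has it. Controls shared 1 slide, TBI rats shared a different one, HSC + TBI rats 1 and 3 shared a further one, and HSC + TBI rat 2 had its own, so slide and group cannot be told apart. All 9 arrays entered a single limma model over 25369 probes, and a probe was called when its Benjamini-Hochberg adjusted p was under 0.05 and its change at least 1.5-fold.

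The granule proteases were lower in the HSC + TBI rats than in the controls, with no overlap of the rats, but none of the 3 passed the test. Gzma, granzyme A, a protease with trypsin-like specificity, had log2 signals of 9.66, 10.94 and 10.45 in control rats 1 to 3, 9.02, 10.61 and 10.15 in TBI rats 1 to 3, and 8.41, 8.26 and 9.22 in HSC + TBI rats 1 to 3. TBI rats 2 and 3 lay among the controls and TBI 1 lay below all of them, while every HSC + TBI rat lay below the controls. The mean of Gzma went from 10.35 ± 0.64 (SD, n = 3) in control to 9.92 ± 0.82 in TBI and 8.63 ± 0.52 in HSC + TBI. Against control, HSC + TBI differed by -1.72 (SE 0.47, adjusted p = 0.0890 by limma), which is 3.30-fold lower, with a 95% interval of -2.79 to -0.66. The difference of TBI alone from control, -0.43 (adjusted p = 0.607), was less than the spread between the rats of either group. HSC + TBI stood at -1.30 relative to TBI (adjusted p = 0.224).

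Gzmb, granzyme B, the protease that cleaves and activates caspases, read 6.72, 8.22 and 7.45 in control rats, 5.42, 7.66 and 7.40 in TBI rats, and 5.15, 5.31 and 6.01 in HSC + TBI rats. TBI rat 1 again lay among the HSC + TBI rats, and the other two TBI rats were within the control range. The group means were 7.46 ± 0.75, 6.83 ± 1.23 and 5.49 ± 0.46 in the same order. The HSC + TBI mean was 3.94-fold below control, the largest fold among the 8 members tested in this comparison (difference -1.98, SE 0.60, adjusted p = 0.119 by limma). The differences were -0.64 for TBI against control (adjusted p = 0.544) and -1.34 for HSC + TBI against TBI (adjusted p = 0.320).

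Gzmk, granzyme K, a relative of granzyme A found in natural killer and memory T cells, read 6.51, 7.28 and 6.67 in control rats, 5.51, 8.25 and 7.36 in TBI rats, and 5.32, 4.88 and 5.34 in HSC + TBI rats. TBI rats 2 and 3 were above every control rat and TBI rat 1 below every one. It was the only member tested whose mean was higher in TBI than in control (7.04 ± 1.4 against 6.82 ± 0.41, difference 0.22, adjusted p = 0.845), and it turned to -0.39 without TBI rat 2. All 3 HSC + TBI rats lay below all TBI rats and all controls. The differences of HSC + TBI were -1.64 against control (3.12-fold lower, adjusted p = 0.174) and -1.86 against TBI (3.63-fold lower, adjusted p = 0.183).

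The other granule proteins followed the proteases. Prf1, perforin, read 8.89, 9.75 and 9.15 in control rats, 7.92, 9.72 and 9.14 in TBI rats, and 7.58, 7.29 and 7.97 in HSC + TBI rats. TBI rat 1 lay just below HSC + TBI rat 3, and TBI rats 2 and 3 lay within the range of the controls. The HSC + TBI mean of 7.61 ± 0.34 was 3.15-fold below the control mean of 9.27 ± 0.44 (difference -1.65, SE 0.43, adjusted p = 0.0802 by limma). TBI alone, with a mean of 8.93 ± 0.91, differed from control by -0.34 (adjusted p = 0.661). Relative to TBI, HSC + TBI stood at -1.31 (adjusted p = 0.193).

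Nkg7, a granule membrane protein needed for the release of cytotoxic granules, read 8.78, 10.06 and 9.74 in control rats, 8.28, 9.81 and 9.40 in TBI rats, and 7.72, 7.44 and 8.27 in HSC + TBI rats. The HSC + TBI rats were below every rat of both other groups, although TBI rat 1 at 8.28 was barely above HSC + TBI rat 3 at 8.27. The mean was 9.53 ± 0.67 among controls, 9.16 ± 0.79 after TBI and 7.81 ± 0.42 after HSC + TBI. HSC + TBI was 3.29-fold below control (difference -1.72, SE 0.45, adjusted p = 0.0805 by limma), and -1.35 relative to TBI (adjusted p = 0.196). TBI alone differed from control by -0.36 (adjusted p = 0.650).

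The receptors gave dimmer signals. Klrb1a, a lectin-like receptor of the NKR-P1 family that marks rat natural killer cells, read 5.07, 6.0 and 5.37 in control rats, 4.04, 5.36 and 4.86 in TBI rats, and 4.08, 3.55 and 4.04 in HSC + TBI rats, where rat 2 was not well above background. TBI rat 1 lay level with HSC + TBI rat 3 and below HSC + TBI rat 1, and no HSC + TBI rat reached a control. With means of 5.48 ± 0.48, 4.75 ± 0.67 and 3.89 ± 0.29 in the same order, HSC + TBI was 3.00-fold below control (difference -1.59, SE 0.36), and its adjusted p of 0.0510 by limma just missed the threshold. TBI differed from control by -0.72 (adjusted p = 0.244), and HSC + TBI from TBI by -0.86 (adjusted p = 0.280).

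Klrd1, known as CD94, pairs with NKG2 proteins into receptors for class I molecules. It read 4.37, 5.5 and 4.68 in control rats, 3.71, 5.28 and 4.03 in TBI rats, and 3.51, 2.98 and 4.09 in HSC + TBI rats, where rats 1 and 2 were not well above background. The HSC + TBI rats lay below the controls, and HSC + TBI rat 3 lay above TBI rats 1 and 3. With means of 4.85 ± 0.58, 4.34 ± 0.83 and 3.52 ± 0.55, HSC + TBI differed from control by -1.32 (adjusted p = 0.166 by limma), a value that the background bounds, since only 1 of the 3 HSC + TBI rats was above it. The differences of TBI from control and of HSC + TBI from TBI were -0.51 (adjusted p = 0.533) and -0.82 (adjusted p = 0.430).

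Ncr1, known as NKp46 and the most specific natural killer marker of the set, was well above background only in TBI rats 2 and 3. Its signals were 2.05, 3.30 and 2.60 in control rats, 3.09, 3.52 and 3.64 in TBI rats, and 3.23, 2.09 and 1.25 in HSC + TBI rats. At this signal no difference can be read from the probe, and it entered no test. The Klr and granzyme genes have closely related copies, and with 1 probe each it was not tested whether a probe also reads a copy.

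Xcl1, lymphotactin, a chemokine that natural killer cells and activated CD8 T cells release to draw in cross-presenting dendritic cells, was the only member that passed the test, and it did so in HSC + TBI against control. It read 7.0, 8.09 and 6.92 in control rats, 5.74, 6.29 and 6.21 in TBI rats, and 5.36, 5.01 and 6.20 in HSC + TBI rats. Every irradiated rat lay below every control, with or without HSC. The TBI rats spanned 0.55 on the log2 scale, the narrowest range of the group over the 8 members tested, while those of Gzmk spanned 2.74, the widest. Xcl1 fell 3.52-fold, from 7.34 ± 0.66 in control to 5.52 ± 0.61 in HSC + TBI (difference -1.81, SE 0.38, adjusted p = 0.0415 by limma). The TBI mean of 6.08 ± 0.30 was 2.39-fold below control (difference -1.26, SE 0.38, adjusted p = 0.0828), and the difference of HSC + TBI relative to TBI was -0.56 (95% interval -1.43 to 0.31, adjusted p = 0.513).

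The call on Xcl1 rested on single rats. It was lost without any 1 of control rats 1 (adjusted p = 0.0560), 2 (0.103) and 3 (0.0842), TBI rats 2 (0.0636) and 3 (0.0562), and HSC + TBI rats 1 (0.145) and 2 (0.134), with differences between -2.15 and -1.44 over all 9 rats left out. It was also lost with normexp background correction, where the difference was -0.85 (adjusted p = 0.0506), without the filter on dim probes (0.0877), with only the compared groups in the fit (0.0628), with the replicate number as a block (0.0692) and by the methods' t-test after adjustment (0.177).

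**Figure D1:**
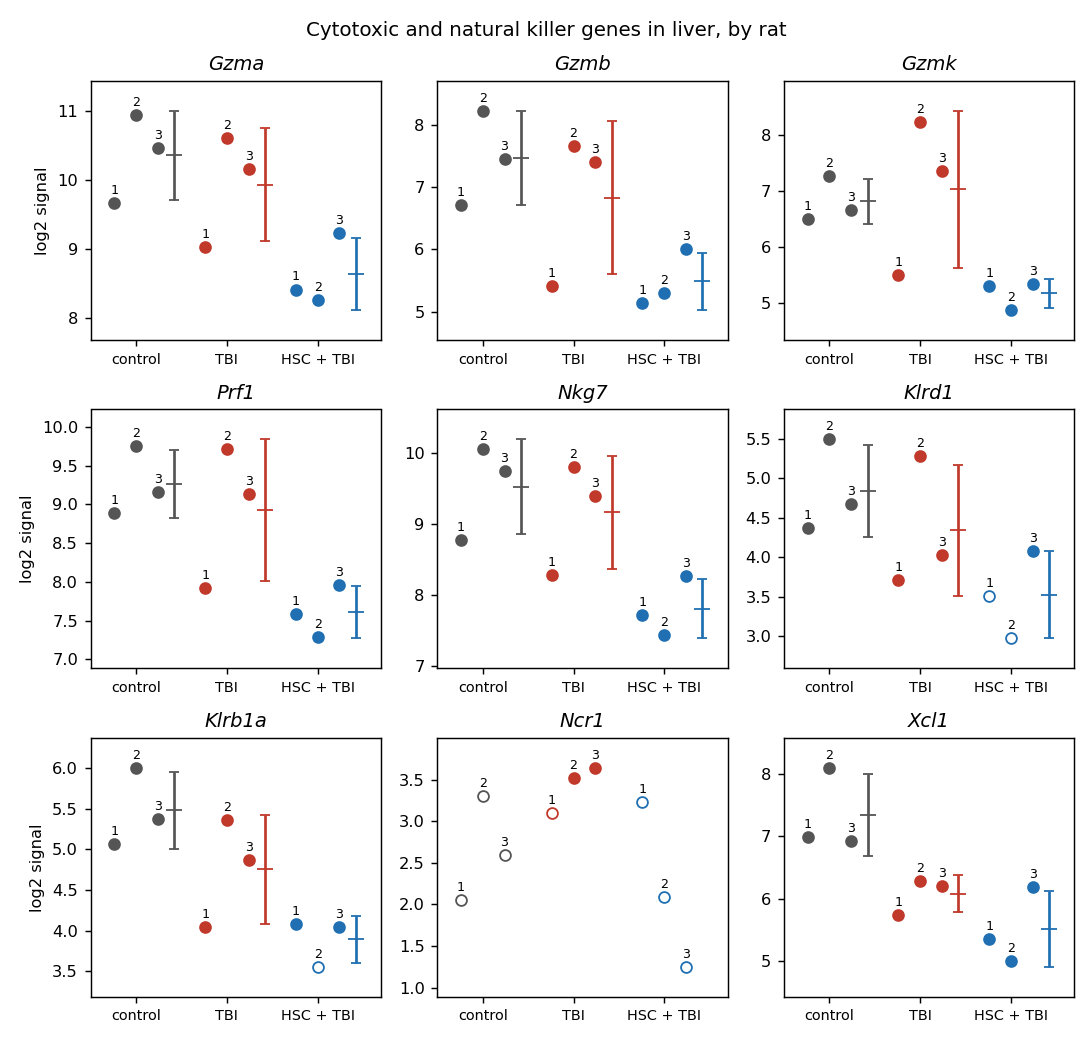
Log2 signal (y axis) of 9 genes in each rat, by group (x axis); numbers are the rat's number in its group, open circles were not well above background, and the bars give mean ± SD (n = 3; none for Ncr1). In the 8 genes other than Ncr1 the HSC + TBI rats lie below all controls, and TBI rat 1 is the lowest TBI rat.

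Counted over the 8 members tested, HSC + TBI against control gave 1 call, beside 3.23% of all probes tested (2.05% called lower). All 8 members had every HSC + TBI rat below every control rat, as did 13.7% of all probes tested. Their fold was between 2.5 (Klrd1, where background is a limit) and 3.94, and with normexp background correction the differences were smaller, from -1.44 (Gzma) to -0.29 (Klrd1). The 7 that were not called had adjusted p between 0.0510 and 0.174. The median difference of the 8 was -1.69 against 0.05 over all probes tested. An unadjusted p under 0.05 by limma was reached by 8 of 8 members and by 19.6% of all probes. The members went up and down together in the same rats, so these 8 are not independent readings. They were also chosen with earlier results of these data known. In bulk liver, fewer cells that make these transcripts and less transcript per cell cannot be told apart. The 3 comparisons share groups of rats (the control rats stand in both comparisons with control), so they are not independent of each other.

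TBI against control gave no call among the 8 by limma, where 7.25% of all probes tested were called (3.71% lower). At an unadjusted p under 0.05 it was 1 of 8, Xcl1, against 25.5% of all probes, and the methods' t-test gave 1 at its unadjusted threshold. Xcl1 alone had all TBI rats below all controls, against 15.6% of all probes tested. The median difference of the 8 was -0.47 against -0.01 over all probes. Without TBI rat 1, the differences of Gzma, Gzmb, Prf1 and Nkg7 turned to 0.03, 0.07, 0.16 and 0.08.

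HSC + TBI against TBI likewise gave no call among the 8 by limma, where 0.796% of all probes tested were called (0.564% lower), and 5 of 8 had an unadjusted p under 0.05, against 16.3% of all probes. Gzmk and Nkg7 had all HSC + TBI rats below all TBI rats, against 8.74% of all probes, and the median difference was -1.30 against 0.06 over all probes. This comparison turned on TBI rat 1. Without it, Gzmb (difference -2.04, adjusted p = 0.0470), Gzmk (-2.62, 0.00962) and Prf1 (-1.81, 0.0259) were called, and 7 members had no overlap. The share of all probes called or with no overlap without TBI rat 1 was not counted in any comparison. No overlap is also reached more easily with fewer rats. In HSC + TBI against control, leaving out TBI rat 1 raised the calls from 1 to 6 (Gzmb, Gzmk, Prf1, Nkg7, Klrb1a and Xcl1) with the differences as before. That rat then no longer enters the shared estimate of the spread, and the filter and the adjustment were redone too. Which of these changes raised the calls was not tested. TBI rat 1 was left out only after its values had been seen, and its array had 63.6% of probes above background and correlated at r = 0.984 with TBI rat 2 and 0.973 with TBI rat 3, which correlated at 0.978 with each other. With HSC + TBI rats 1 to 3 its array correlated at 0.980, 0.981 and 0.980, higher than with TBI rat 3. TBI rats 2 and 3 correlated with the HSC + TBI rats at 0.972 to 0.976.

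**Figure D2:**
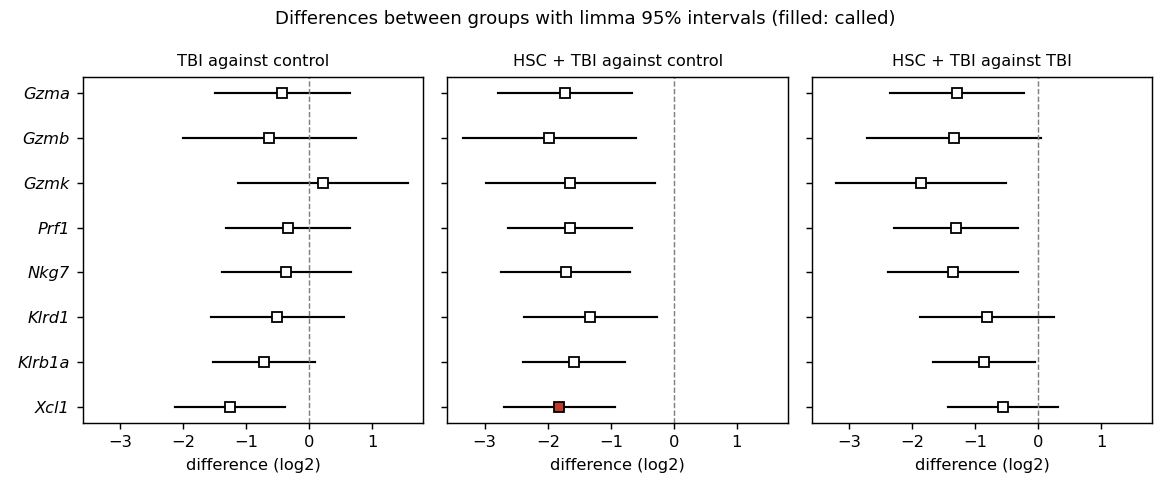
Difference in log2 signal (x axis) of the 8 members tested (y axis) in each comparison, with 95% limma intervals; a filled square was called. In HSC + TBI against control all 8 intervals lie below 0 and only Xcl1 was called, while in TBI against control only that of Xcl1 does.

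**Figure D3:**
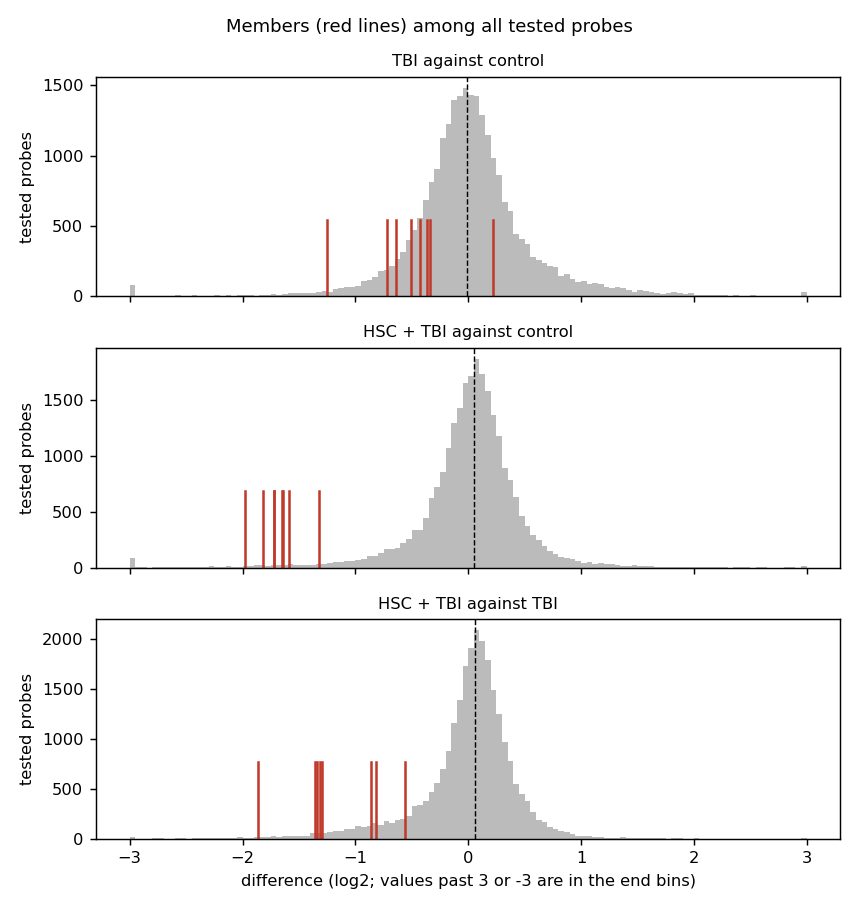
Number of the 25369 probes tested (y axis) by difference in log2 signal (x axis) in each comparison, with the 8 members as red lines and the median of all probes dashed. In HSC + TBI against control the members sit between -1.98 and -1.32, in the lower tail of a distribution centred at 0.05.

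Within each group the members went up and down together from rat to rat. Control rat 2 was the highest control for 8 of 8 members, and the highest of all 9 rats for 7. TBI rat 2 was the highest and TBI rat 1 the lowest TBI rat for 8 of 8. Among the HSC + TBI rats, rat 2 was the lowest and rat 3 the highest for 7 of 8. The spread of the members within groups was also wider than usual for a probe. Their median SD was 0.61 among controls, 0.82 after TBI and 0.44 after HSC + TBI, against 0.17, 0.24 and 0.15 over all probes tested. Part of the order of the rats was shared by the leukocyte marker lists whose summed signals are given below. Control rat 2 was also the highest control for the T cell, Kupffer cell and macrophage, and pan-leukocyte lists. For the B cell and neutrophil lists it was the lowest control. TBI rat 1 was the lowest TBI rat for all of these lists. Among the HSC + TBI rats, rat 2 was the lowest for the B cell list only. These orders are those of the sums, and some change when each gene is counted alike. By mean log2 change from control, control rat 2 was the highest control for the neutrophil list (0.29). TBI rat 3 (-0.66), not rat 1 (-0.61), was the lowest TBI rat for that list. HSC + TBI rat 2 was then the lowest for the Kupffer cell and macrophage list (-0.54, rat 1 -0.53). For the B cell list it was not (-1.65, rat 3 -1.83).

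Among genes outside the set, those chosen by their likeness to the members traced the same rats most closely. Over the 9 arrays, the mean of the 6 members above background on all of them, each centred on its own mean, had a Pearson r of 0.993 with Fcgr3a, the Fc receptor CD16 of natural killer cells and macrophages. Next came Tasl (0.992), an adaptor of endosomal Toll-like receptors, the pan-leukocyte phosphatase Ptprc or CD45 (0.990), the drug exporter Abcc1 (0.988) and the granule protease Gzmm (0.988). These are the highest of 8524 genes ranked, the points share arrays and groups, and the values are a description.

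Other natural killer and cytotoxic genes were read from a list of 69. Of these, 50 had a probe and 32 were tested. The 18 with a probe that was too dim included Ifng, the T-box factor Tbx21 and the receptors Cd96 and Cd226, so these genes could not be compared. In HSC + TBI against control 4 of the 32 fell, none rose and 28 did not pass the test, where 2.05% of all probes were called lower. All HSC + TBI rats were below all controls for 21 of them, against 13.7% of all probes. The median difference of the list was -0.90.

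Klrk1, the activating receptor NKG2D, read 5.74, 6.96 and 6.61 in control rats, 4.60, 5.54 and 5.83 in TBI rats, and 3.92, 4.14 and 4.66 in HSC + TBI rats, and fell by 2.20 on the log2 scale in HSC + TBI against control (adjusted p = 0.0234 by limma). Gzmm, granzyme M, a protease strongly expressed in natural killer cells, read 8.84, 9.92 and 9.29 in control rats, 7.55, 9.36 and 9.17 in TBI rats, and 7.20, 6.62 and 7.40 in HSC + TBI rats, and fell by 2.27 (adjusted p = 0.0422). In both genes the controls and the HSC + TBI rats did not overlap. Ccl4, a chemokine of activated natural killer and T cells and of macrophages, went from 8.61 ± 0.55 (SD, n = 3) to 6.61 ± 0.13 and fell by 2.01 (adjusted p = 0.0174). Rab27a, a small GTPase that docks granules at the membrane, went from 6.71 ± 0.16 to 5.71 ± 0.15 and fell by 0.99 (adjusted p = 0.0415). Gzmc, another granzyme, was among the 3 largest differences (-2.17) and was not called (adjusted p = 0.102).

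By role, 9 of 9 receptors and adaptors, 11 of 11 granule and death-inducing genes and 10 of 12 cytokine, chemokine and signalling genes had a lower mean in HSC + TBI than in control, with medians of -1.67, -0.80 and -0.68. Of all probes tested, 43.5% had a lower mean. Background limits some of these differences. Klri2, whose value is the receptor median, was above background in 0 of 3 HSC + TBI rats. Klre1 was above it in 2 of 3, and Faslg and Itgal in 1 of 3 each. These genes are also among the 21 with no overlap. The lysosomal membrane protein Lamp1, which most cells make, was the closest to 0 of the 11 granule genes, at -0.04.

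In TBI against control 1 of the 32 genes rose and none fell, where 7.25% of all probes were called (3.71% lower). Id2, a regulator that natural killer cells need but many cell types make, was 11.31, 11.52 and 11.62 in control rats and 12.60, 12.38 and 11.80 in TBI rats, a rise of 0.78 (adjusted p = 0.0476 by limma). The largest differences beside it were those of Gzmc (-1.18), Klrk1 (-1.12) and the death ligand Tnfsf10 (-0.91), with adjusted p of 0.274, 0.122 and 0.242. The median of the 32 was -0.10, 2 of them had all TBI rats below all controls (15.6% of all probes), and 3 had all TBI rats above all controls (13.3% of all probes). In HSC + TBI against TBI limma called none of the 32, where 0.796% of all probes were called. An unadjusted p under 0.05 by limma was reached by 16, against 16.3% of all probes. The methods' t-test gave 4 at its unadjusted threshold. This comparison had a median of -0.82, and 11 genes had all HSC + TBI rats below all TBI rats (8.74% of all probes). Its largest differences among genes above background on all arrays were in Gzmm (-1.62, adjusted p = 0.165), the shared signalling chain Fcer1g (-1.53, 0.110) and the granule proteoglycan Srgn (-1.39, 0.138). The share of all probes called without TBI rat 1 was not counted. Without that rat, 11 of the 32 were called in HSC + TBI against TBI and 8 in HSC + TBI against control. In the latter the calls went to 0 without control rat 2 or 3 or HSC + TBI rat 1 or 2, and to 1 without HSC + TBI rat 3. The call of Id2 was lost without control rat 2 or 3 or any 1 of the HSC + TBI rats.

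**Figure D4:**
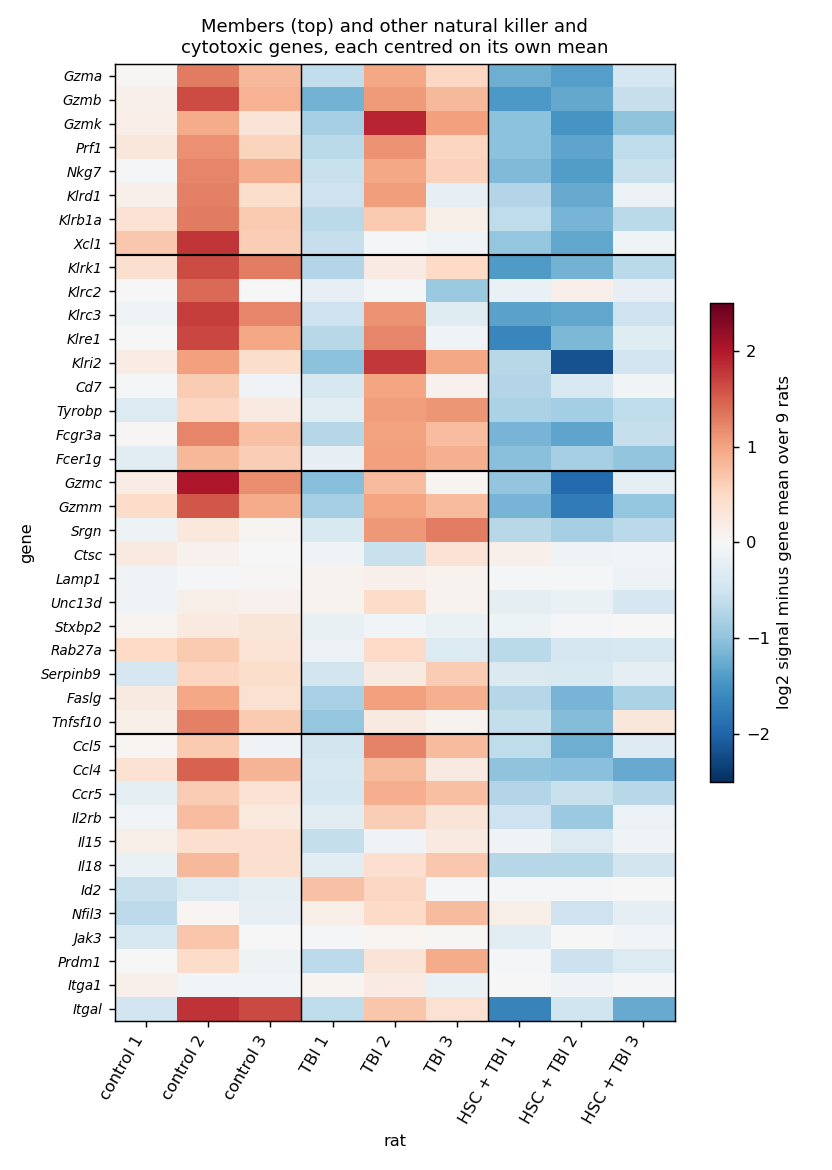
Log2 signal minus the gene's own mean over the 9 rats (colour) for the 8 members (top block), then 9 receptors and adaptors, 11 granule and death-inducing genes and 12 cytokine, chemokine and signalling genes (rows), in each rat (columns). Most members and receptors are below their mean in TBI rat 1 and in the HSC + TBI rats, and above it in control rat 2 and TBI rat 2.

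Markers of other blood cells and of the liver itself were read beside these genes. The summed signal of the 8 members, relative to the control mean, was 0.623 to 1.4 in the control rats, 0.369 to 1.17 in the TBI rats and 0.224 to 0.405 in the HSC + TBI rats. The summed signal of 10 T cell markers was 0.807 to 1.18, 0.493 to 0.720 and 0.401 to 0.491 in the same order, so that, unlike for the members, no TBI rat reached a control. In TBI against control 4 of 10 T cell markers were called lower, among them Cd3g, Cd6 and Lat, against 3.71% of all probes. In HSC + TBI against control 5 of 10 were, among them Cd3g, Cd6, Lat and Zap70, against 2.05% of all probes. In HSC + TBI against TBI it was 1 of 10 (Cd8b, difference -1.58, adjusted p = 0.0434 by limma), against 0.564% of all probes. Not all T cell markers went this way: 3 of the 10 had a higher mean in TBI than in control, Cd8b by 0.78 (adjusted p = 0.105), Cd4 by 0.71 (0.260) and Lck by 0.55 (0.240), and none of these passed the test. Cd3g, a chain of the T cell receptor complex, was at least 11.4-fold lower in HSC + TBI than in control, a bound because it was not well above background in any HSC + TBI rat. Of the 14 T cell markers with a probe, Cd3e, Cd247, Cd5 and Cd28 were above background on none of the 9 arrays.

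The remaining lists gave further values in the same rats. The summed signal in HSC + TBI rats was 0.554 to 0.624 of the control mean for 4 B cell markers, 0.342 to 0.444 for 4 neutrophil markers, 0.571 to 0.618 for 10 Kupffer cell and macrophage markers and 0.548 to 0.624 for 10 pan-leukocyte genes. In TBI rats these sums were 0.651 to 1.08, 0.546 to 1.02, 0.816 to 1.52 and 0.819 to 1.5. A sum is carried by the brightest probes, among the B cell genes that of Cd22 (0.55 in TBI against control, adjusted p = 0.089). With each gene counted alike, the mean log2 change of the 4 B cell markers from control was -1.59, -0.70 and -0.87 in TBI rats 1 to 3, and that of the 8 members was -1.43, 0.23 and -0.32. The B cell genes Cd79b, not well above background in any irradiated rat, and Fcrla, above it in 1 of the 3 HSC + TBI rats and called only for that group, the neutrophil gene Fcnb (-1.49 and -2.01) and the leukocyte actin-binding gene Coro1a (-1.29 and -2.49) were called against control, as was Cd52 in HSC + TBI (-1.76). No Kupffer cell or macrophage marker was called. All 10 had a lower mean in HSC + TBI than in control and than in TBI. Against TBI, 8 of the 10 had no overlap of the rats (8.74% of all probes tested). In that comparison 9 had an unadjusted p under 0.05 by limma (16.3% of all probes). Against control, 6 of the 10 had no overlap (13.7% of all probes). Lower with no overlap in HSC + TBI against control were also 9 of 10 pan-leukocyte genes and 8 of 10 T cell markers. For B cell markers it was 3 of 4, and for neutrophil markers 2 of 4. Against TBI these counts were 8, 2, 2 and 2 in the same order. The leukocyte integrin chain Itgb2 rose in TBI (0.87) and was lower in HSC + TBI than in TBI (-1.08, adjusted p = 0.0435). The summed signal of the 12 hepatocyte markers, carried by bright probes such as that of albumin, was 0.934 to 1.02 of the control mean in the irradiated rats. Quantile normalization gives the brightest probes of every array nearly the same values. This sum could therefore move little, and it cannot show whether hepatocyte transcripts were stable. Single hepatocyte genes differed more, and Tat, an enzyme of tyrosine breakdown, was the one called, higher in TBI (1.53), with 1.41 in HSC + TBI against control (adjusted p = 0.062). Markers of several leukocyte types were thus lower in the same HSC + TBI rats as the members, and their part in the result was not tested.

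**Figure D5:**
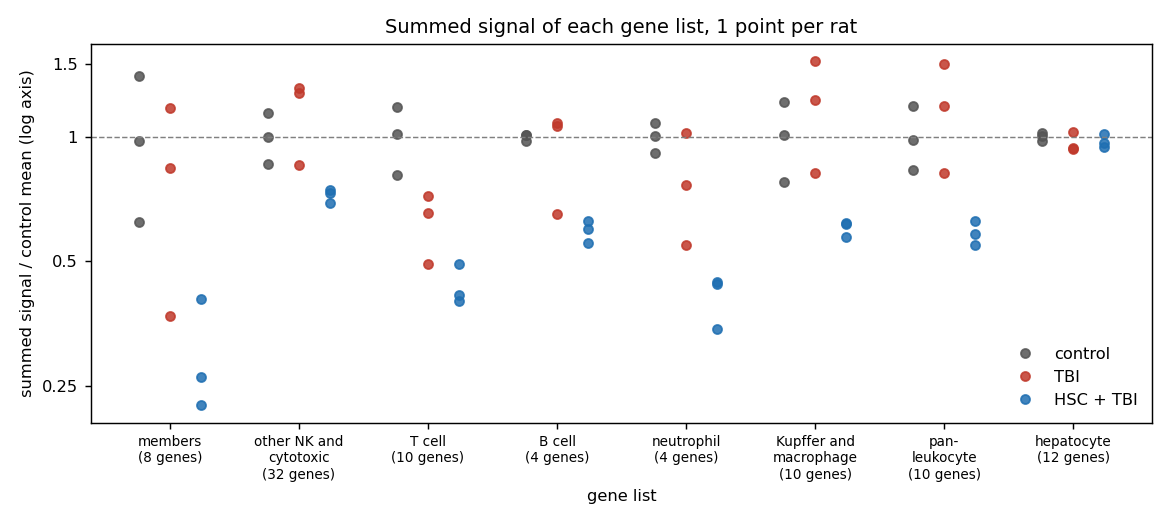
Summed linear signal of each gene list divided by its control mean (y axis, log scale), 1 point per rat, for the tested genes of each list (x axis). The members lie at 0.224 to 0.405 in the HSC + TBI rats, below all controls. The summed signal of the hepatocyte markers is near 1 in all rats, which quantile normalization of the brightest probes largely fixes.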

How the data were processed

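Liver RNA of 9 rats was labelled with Cy3 and hybridised to one-colour Agilent arrays. Spot intensity was deposited as the output of Agilent Feature Extraction (10.7.3.1, per the file headers), and the authors also deposited log2 values normalized by quantiles in GeneSpring, used here as an alternative. Here the processed signal intensity, with a floor of 1, was log2-transformed and normalized by quantiles in limma 3.58.1 (R 4.3.3), without control spots or outlier spots (84 to 115 of 43379 per array; 0 saturated), and the spots of each of the 41012 probes were averaged. The values differed from the authors' log2 values by a median of 0.03 on each array. RefSeq accessions named 16968 probes through GRCr8, used for names and upstream sequence only. The 25369 probes flagged well above background in more than 0.5 of their spots on all 3 arrays of a group were tested with lmFit and eBayes, and the Benjamini-Hochberg adjustment ran over all of them. The scripts were tested on simulated data. The 3 rats per group limit the precision: the smallest p of an exact two-sided permutation test is 0.1.

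The members and lists were chosen with earlier results of these data known. The text names all members, genes of the cytotoxic list that were called or had the 3 largest differences per comparison among those above background on all 9 arrays, called markers (results for some single genes are not reported here), and the 5 genes most like the members; a few dim genes and Lamp1 are named beside the counts they belong to and were chosen after their values were seen. Where a probe was dim throughout a group, its fold is a bound, taken against the lowest signal above background on each of its arrays. Other settings tried were normalization to the 75th percentile, normexp with an offset of 50 on median spot and background intensities, the authors' values, no filter or a stricter one on dim probes, outlier spots kept, only the groups compared, the methods' t-test, no minimum fold, the second brightest probe, a block for the replicate number, a random block for the slide, and leaving out each rat. Counts of members whose rats do not overlap were added after seeing the data. Same-numbered rats of different groups deviated together with correlations of only -0.14 to 0.19, and nothing in the labels links them, so the numbers were not taken to pair the rats.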

Additional observations from a re-analysis of the deposited data

How the results depend on the processing

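In HSC + TBI against control and against TBI, the differences of all 8 members stayed below 0 under all alternatives run and with any 1 rat left out, but with normexp they shrank to between -1.44 and -0.29 against control and between -1.10 and -0.16 against TBI; in TBI against control 75 of 86 values under other settings and 60 of 72 with a rat left out were below 0. In that comparison the sign turned without TBI replicate 1 for Gzma (-0.77 to 0.0264 over the rats left out), Gzmb (-1.05 to 0.0666), Prf1 (-0.74 to 0.16) and Nkg7 (-0.74 to 0.0765), and without TBI replicate 2 for Gzmk (-0.39 to 0.98). The number of members called in HSC + TBI against control, 1 as reported, was 2 with the 75th percentile shift, 0 with normexp, 0 without the filter on dim probes, 4 with only the compared groups in the fit, 8 by the methods' t-test unadjusted and 0 adjusted, and 0 to 6 with 1 rat left out. In TBI against control it was 1 by the unadjusted t-test and 0 to 0 with a rat left out, and in HSC + TBI against TBI 0 to 3 with a rat left out. For the 32 other cytotoxic genes, the 4 calls in HSC + TBI against control became 1 without the filter, 7 with only the compared groups, 15 and 0 by the unadjusted and adjusted t-test, and 0 to 8 with a rat left out; the 1 call in TBI against control became 0 with only the compared groups, 0 by the adjusted t-test and 0 to 1 with a rat left out; and the 0 calls in HSC + TBI against TBI became 4 by the unadjusted t-test and 0 to 11 with a rat left out. Members with no overlap of the rats numbered 1 to 3, 8 to 8 and 2 to 7 with a rat left out, the first for TBI and the second for HSC + TBI, each against control, and the third for HSC + TBI against TBI. With the replicate number as a block, no member was called (0) in HSC + TBI against control, Xcl1 being at an adjusted p of 0.0692, and the block left the other calls of members at 0; 6 other cytotoxic genes were called in that comparison, against 4. Each rat correlated best with its own number for 5 of the 9 rats. With the slide as a random block (consensus correlation -0.33), members called were 2 in TBI against control, 8 in HSC + TBI against control and 5 in HSC + TBI against TBI, and other cytotoxic genes 9, 16 and 13; a negative correlation narrows the errors, and slide and group cannot be told apart. The cause of these changes was not tested. The share of all probes called was not counted under the other settings, the unadjusted t-test and the slide block among them, or with a rat left out. These counts of calls therefore cannot be set against the probes at large. The 75th percentile shift moved the median of all probes by at most 0.04. The second brightest probe gave no value for the members, which have 1 probe each. Klrd1, Klrb1a and above all Ncr1 are limited by signal over background.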
